A study of Mus musculus with 15 samples.

Results

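The 5214 regions described here were strong accessible sites under 5 kb that every ATAC-seq library shared in a time course of mouse macrophages responding to lipopolysaccharide (LPS), a component of the bacterial outer membrane. They were chosen from peak lists. Joining peaks of different libraries wherever they shared at least 1 bp gave 104855 regions, of which 34777 held a peak in all 15 libraries (called constant regions below). A constant region counted as strong when its highest peak score was 1000 or more in every library and its merged width was under 5 kb. The strong regions made up 15% of the constant regions and 4.97% of all regions.

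All libraries came from primary macrophages grown from the bone marrow of C57BL/6 mice in medium conditioned by L929 cells and harvested at day 7 of differentiation. Cells were left untreated or were given 10 ng/ml of LPS, and the exposure lasted 30 min, 1 h, 2 h or 4 h, with 3 libraries for each of the 5 groups. Every group therefore shared the strain, the medium and the culture time, and the 4 LPS groups differed from the controls in the agent and its duration. The labels do not say whether the 3 libraries of a group came from separate mice or cultures, so the p-values reflect the variation among those libraries alone, and it may be technical. Macrophage marker genes were not checked, since the lists hold positions in the genome build mm9 without gene names and no annotation of that build was used here.

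ATAC-seq uses a transposase that inserts sequencing adapters into DNA not protected by nucleosomes, so a peak marks DNA that the enzyme could reach. In such bulk libraries, a larger share of cells with an open site and a more accessible site within each cell cannot be told apart. In most cell types, strong peaks present under every condition include promoters of broadly expressed genes and sites bound by the insulator protein CTCF, and in macrophages also enhancers held open by the lineage factor PU.1. LPS is sensed by the receptor TLR4, which activates the transcription factors NF-κB, AP-1 and later IRF and STAT proteins, and these act largely at enhancers that are already open while some further sites open after the stimulus. Which of these classes a region belongs to was not examined here, because it needs the genome sequence and the gene models of the build used.

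The 15 lists held 52447 to 82222 nuclear peaks each, and 9088 to 18896 of these reached a score of 1000. Sequencing depth is unknown, as the lists carry no read numbers. Scores are values that the peak caller assigned within 1 list. Of the peaks at 1000 or more in a library, 27.9% to 57.6% lay in the strong regions, and the strong regions held 10.2% to 13.7% of the DNA covered by a library's peaks. The third libraries at 1 h and at 4 h had the fewest peaks of that score, 9088 and 9632.

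Presence, score and merged width chose the members, so the following values describe the rule and are not findings. The smallest score in any member was 1000.01. Many peaks share the score 3100. In 620 members (11.9%) the score was at 3100 or more throughout, and in 937 members (18%) it never reached 3100. A member's peak stood at a median percentile of 92.2 to 94.7 among all peaks of its own library. The count of libraries that passed was not split cleanly into none and all: among the constant regions under 5 kb, 12399 (38.3%) reached 1000 in 0 libraries and 1307 (4.04%) in 14 of 15. The single library that fell short was 1 h replicate 3 in 450 of the latter, 4 h replicate 3 in 420 and untreated replicate 1 in 295.

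At the threshold itself, the 3 members with the smallest lowest score were chr5:96605272-96607120 at 1000.01, chr11:103853246-103855319 at 1000.08 and chr7:135231932-135234010 at 1000.33. Just outside lay chr4:15938634-15941987 at 999.96, chr13:55579038-55581556 at 999.87 and chr5:52580215-52582813 at 999.75. A lowest score under 1100 was found in 556 members (10.7%), and 698 further regions that met the other criteria had a lowest score of at least 900 but below 1000.

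A typical member was a single compact peak. The merged width had a median of 2849 bp and ran from 1245 to 4999 bp, and the span covered in all 15 libraries had a median of 1602 bp, 59.4% of the merged region. In 3816 members (73.2%) every library had exactly 1 peak, while in 1398 members (26.8%) at least 1 library had 2 or more peaks in the region, and in 19 members all libraries did. The share of members that were split into 2 or more peaks ran from 6.62% in 30 min replicate 3 to 12.5% in 30 min replicate 2, so libraries of the same group lay at both extremes.

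Width was measured as the base pairs covered by a library's peaks in a region. The median width of the members was 2041, 2423 and 2165 bp in the untreated libraries, 2337, 2187 and 2124 bp at 30 min, 2213, 2208 and 2015 bp at 1 h, 2336, 2354 and 2294 bp at 2 h, and 2282, 2390 and 2093 bp at 4 h (replicates 1 to 3). Every LPS group overlapped the untreated group, and the widest and the second narrowest of all libraries were both untreated. The 27130 other constant regions under 5 kb had medians of 1414 to 1705 bp. Since whole libraries ran wide or narrow, each library was centred on its median log2 width over the 34777 constant regions before groups were compared. Base pairs given for a single region are not centred, and a statement of overlap beside them is about those base pairs. Fold changes and tests use the centred log2 width.

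**Figure D1:**
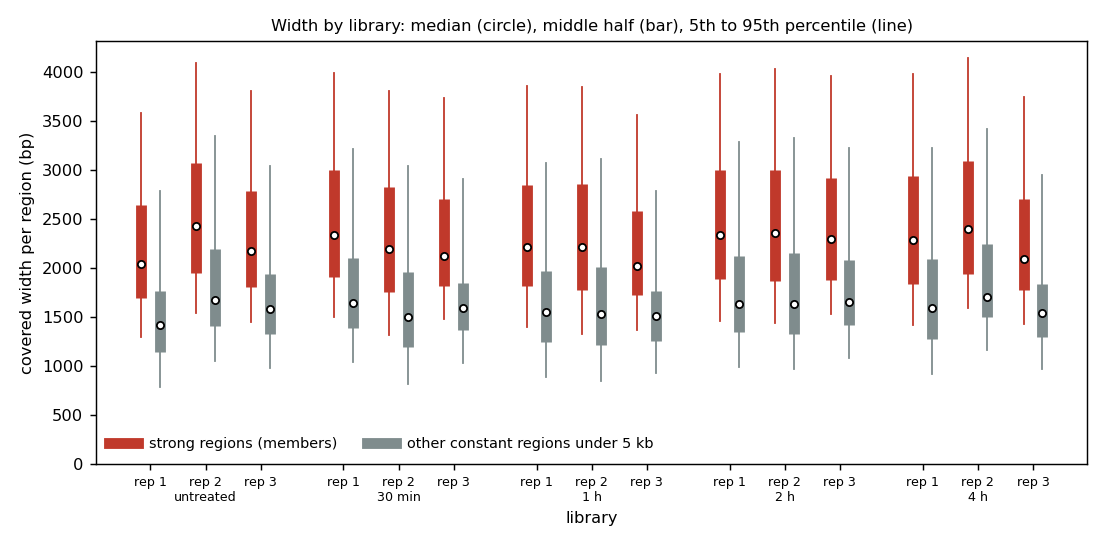
Covered width per region (bp) in each of the 15 libraries, for the 5214 strong regions (red) and the 27130 other constant regions under 5 kb (grey). Circles are medians, bars the middle 50% and lines the 5th to 95th percentile. Medians of the strong regions ran from 2015 to 2423 bp, with untreated replicates 1 and 2 near opposite ends.

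Members varied little in width between libraries. The SD of the centred log2 width over the 15 libraries had a median of 0.16 in the members and 0.24 in the other constant regions under 5 kb. Within groups the median SD was 0.15 in the members and 0.23 in the others, and it was 0.15 in the 1189 constant regions that met the score rule but were 5 kb or wider. No test was made of these differences, since the score rule itself selects by peak strength. The widest and narrowest library of a member differed by a median of 1.51 times.

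The steadiest member was chr3:96071641-96074536, whose width was 2501, 2876 and 2646 bp in untreated cells, 2850, 2690 and 2767 bp at 30 min, 2716, 2513 and 2513 bp at 1 h, 2833, 2675 and 2672 bp at 2 h, and 2692, 2812 and 2460 bp at 4 h. In base pairs all LPS groups overlapped the untreated group, while after centring the 3 libraries at 4 h lay below it (log2 change -0.06, adjusted p 0.836). The SD of its centred log2 width was 0.05. The next 4 by this measure were chr12:85532608-85537319, chr10:127471593-127474933, chr15:102346493-102350054 and chr11:93855536-93859018. The latter pair also scored 3100 in all 15 libraries.

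The SD of the centred log2 width was 0.07 to 0.11 in the 5 members with the highest scores. They were chr8:11554388-11559294, chr7:26470971-26475934, chr1:182777556-182782267, chr4:62017796-62022739 and chr15:78705912-78710753, each at 3100 or more in every library, with a span of 4009 to 4174 bp covered in all 15. In chr7:26470971-26475934 the width was 4375, 4643 and 4376 bp in untreated cells and 4319 to 4855 bp over the 12 LPS libraries. The groups overlapped, and its log2 changes were 0.02, 0.06, -0.01 and -0.03 at 30 min, 1 h, 2 h and 4 h, with adjusted p of 0.985, 0.854, 0.969 and 0.934 (limma, Benjamini-Hochberg over 34777 regions). None of these 5 was called at any time. After centring, the 3 libraries at 4 h lay below the untreated ones in chr8:11554388-11559294 (log2 change -0.07, adjusted p 0.824), and so did those at 2 h in chr4:62017796-62022739 (-0.18, adjusted p 0.463).

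Changes of width after LPS were then tested with limma over all 34777 constant regions in a single fit of the 15 libraries (5 groups, two-sided, Benjamini-Hochberg adjusted p under 0.05). The rule for members used no contrast between groups, but its upper width limits which widened regions can be members. The 4 contrasts share the 3 untreated libraries. At 1 or more times 130 members (2.49%) were called, beside 5.15% of all constant regions and 4.25% of the other constant regions under 5 kb. Of these members 79 (1.52%) were wider and 51 (0.978%) narrower, beside 3.74% and 1.41% of all constant regions, and none was wider at 1 time and narrower at another. The other 5084 (97.5%) were called at no time, which does not show that their width stayed the same.

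After 30 min of LPS, 17 members (0.326%) were wider and 4 (0.0767%) narrower, beside 0.589% and 0.0748% of all constant regions tested. The 5th to 95th percentile of the members' log2 change ran from -0.28 to 0.27, and 316 members (6.06%) had an unadjusted p under 0.05, beside 8.69% of all constant regions. The count of wider members was 9 without untreated replicate 1, 10 without untreated replicate 3, while leaving out 30 min replicate 1 gave 11, replicate 2 gave 4 and replicate 3 gave 9. The count of narrower members was 1 without untreated replicate 2, untreated replicate 3 or 30 min replicate 2, 2 without 30 min replicate 1, 2 h replicate 1 or 4 h replicate 2, and 0 without 30 min replicate 3. With no centring of the libraries the split was 12 wider and 1 narrower.

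At 1 h, 42 members (0.806%) were wider and 24 (0.46%) narrower, beside 1.7% and 0.702% of all constant regions. The members' log2 changes ran from -0.34 to 0.31 between the 5th and 95th percentile. Leaving out untreated replicate 1, 1 h replicate 1 or 1 h replicate 2 gave 27, 21 and 25 wider members and 13, 14 and 13 narrower ones. The count of narrower members was 11 without untreated replicate 2 and 14 without untreated replicate 3.

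At 2 h the lists were also the longest as a group, with 66955 to 82222 peaks beside 60140 to 73511 in untreated cells, and the part of list length in the result was not tested. At this time 56 members were wider (1.07%) and 30 narrower (0.575%), beside 2.87% and 0.762% of all constant regions. The 5th to 95th percentile ran from -0.32 to 0.37. Without untreated replicate 1 there were 35 wider and 14 narrower members, without 2 h replicate 1 33 and 10, and without 2 h replicate 2 31 and 8. These were the highest counts of the 4 times with all libraries, but not without 2 h replicate 1, when 1 h gave 36 and 20 and 4 h gave 36 and 12, or without 2 h replicate 2, when they gave 38 and 16 and 40 and 13. The narrower members numbered 13 without untreated replicate 2 and 17 without untreated replicate 3 or 2 h replicate 3. With no centring the split was 68 wider and 8 narrower.

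At 4 h, 42 members (0.806%) were wider and 17 (0.326%) narrower, beside 2.24% and 0.477% of all constant regions. The 5th to 95th percentile ran from -0.31 to 0.34. Without 4 h replicate 1 there were 25 wider and 7 narrower members, and without 4 h replicate 2 26 and 9. The narrower members numbered 8 without 4 h replicate 3, while leaving out untreated replicates 1 to 3 in turn gave 9, 7 and 11. With no centring the split was 45 wider and 7 narrower. Wider members outnumbered narrower ones in all 104 pairings of a setting with an LPS time, over 26 settings. The settings reuse the same libraries, so the pairings are not independent. Calls over all constant regions leaned the same way, with 205 wider and 26 narrower at 30 min and 999 and 265 at 2 h. The median log2 change of all members was slightly negative, at -0.016, -0.021, -0.025 and -0.025 at the 4 times.

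Over the 5 groups at once, the moderated F test called 78 members (1.5%), beside 3.37% of all constant regions. Without untreated replicate 2 this count was 45, and leaving out untreated replicate 3 or 2 h replicate 3 gave 50 each. Leaving out 2 h replicate 2 gave 48.

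The share of members called wider lay below that of all constant regions at each time, and this comparison changed when the width bound of the rule was dropped. How much of the difference comes from the bound was not tested. The upper width of 5 kb leaves out regions that widened beyond it. When the bound was dropped, a choice made after these counts were seen, the 6403 regions that met the score rule gave 74, 144, 191 and 141 wider regions at the 4 times (1.16%, 2.25%, 2.98% and 2.20%) and 5, 47, 60 and 31 narrower ones. All constant regions gave 0.589%, 1.7%, 2.87% and 2.24% wider. Without the bound the share was thus no lower at 30 min, 1 h and 2 h, and only slightly lower at 4 h. Among the 1189 strong regions of 5 kb or more, 4.79%, 8.58%, 11.4% and 8.33% were wider. The other constant regions under 5 kb share the bound, but it did not bear on both sets alike. It left out 2433 constant regions, of which 1189 met the score rule, while 5214 members and 27130 others stayed below it. Beside these others, members were called wider in 0.326% against 0.358% at 30 min and 0.806% against 1.22% at 1 h. At 2 h and 4 h the shares were 1.07% against 2.23% and 0.806% against 1.75%. These shares were compared as a description and without a test.

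**Figure D2:**
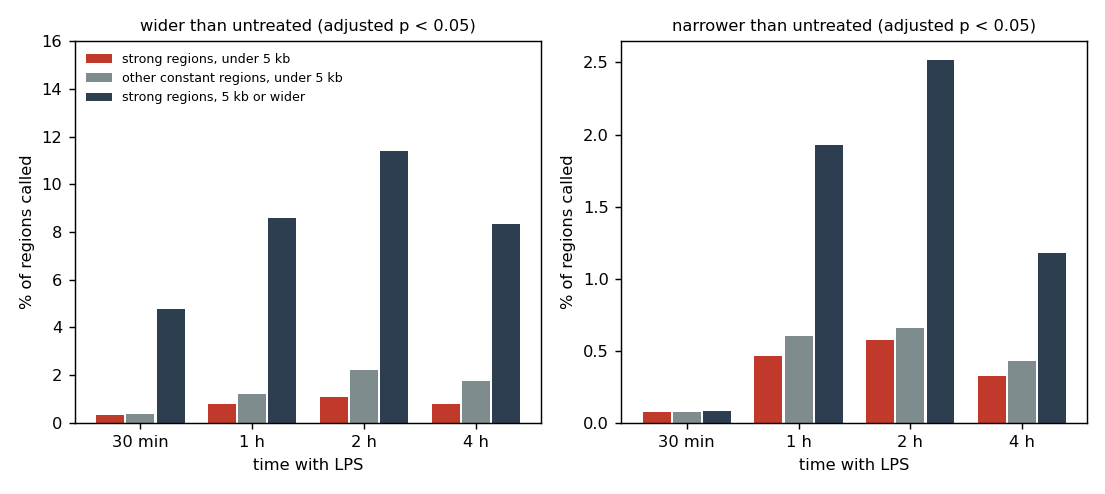
Share of regions (%) called wider (left) or narrower (right) than untreated at each LPS time (limma adjusted p under 0.05), for strong regions under 5 kb, other constant regions under 5 kb, and strong regions of 5 kb or wider. The 2 panels have different vertical scales, both from 0. At 2 h, 1.07% of the strong regions under 5 kb and 11.4% of those of 5 kb or wider were called wider.

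The whole distribution of changes was narrower in the members than in the other constant regions under 5 kb. The members' spread within groups, which involves no LPS contrast, was also smaller (median SD 0.15 beside 0.23). A fixed size of change therefore cannot tell a weaker response from less variable widths. A log2 change of 0.5 or more in either direction was found in 1.46%, 3.24%, 3.57% and 2.97% of members at 30 min, 1 h, 2 h and 4 h, and in 4.53%, 8.47%, 9.16% and 8.29% of the others. Non-overlap of the 3 LPS with the 3 untreated widths differed by direction. Beside all constant regions it was less frequent upwards in members at each time. Downwards it was more frequent at 30 min, 2 h and 4 h and less frequent at 1 h. All 3 LPS widths lay above the untreated widths in 292, 402, 476 and 428 members at the 4 times (5.6%, 7.71%, 9.13% and 8.21%), where the shares over all constant regions were 6.84%, 8.94%, 12.1% and 10.9%. They lay below in 345, 456, 583 and 542 members (6.62%, 8.75%, 11.2% and 10.4%), beside 6.22%, 9.34%, 10.4% and 9.01% of all constant regions. In the other constant regions under 5 kb the shares were 6.24%, 7.97%, 10.9% and 9.92% above and 5.95%, 8.99%, 9.87% and 8.47% below.

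**Figure D3:**
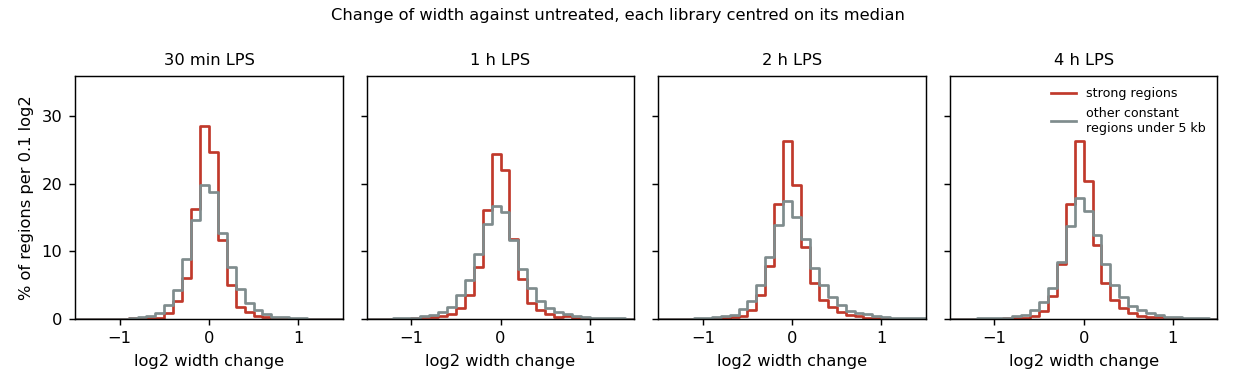
Distribution of the log2 width change against untreated at each LPS time, as % of regions per bin of 0.1, for the strong regions (red) and the other constant regions under 5 kb (grey). The strong regions are more tightly packed around 0, with 3.57% of them and 9.16% of the others changed by 0.5 or more at 2 h. Widths of the strong regions also varied less within groups (median SD 0.15 beside 0.23).

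Changed members tended to be long and split. Wider members had a median merged width of 3896 bp and narrower members of 3395 bp, beside 2849 bp for all members. The share called wider rose with merged width from 0.194% of the 515 members under 2000 bp to 3.85% of the 832 members of 4000 bp or more, and a region that widens has a larger merged width by construction. It was 1.83% among members whose lowest score was under 1500 and 0.968% among the 620 at 3100 or more throughout. At least 1 library split the region into 2 or more peaks in 53 of 79 wider members (67.1%) and in 27 of 51 narrower ones (52.9%), compared with 26.8% of all members.

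Widening was often uneven between the ends of a region. This was counted in called members alone, so no share over other regions stands beside it. Of the 56 members wider at 2 h, both ends had moved outwards in 50, yet a single end held 80% or more of the shift in 36, and the mean number of peaks had gone up in 22. At 30 min, 1 h and 4 h a single end held 80% or more of the shift in 15 of 17, 33 of 42 and 26 of 42. Both ends had moved outwards in 11, 30 and 37 of these wider members. The median gain of the wider members was 1184.7, 1273.5, 1395.8 and 1461.5 bp at 30 min, 1 h, 2 h and 4 h, and the median change of the narrower members was -1187.3, -1181.7, -937.83 and -983.67 bp.

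The region with the largest widening at every time was chr7:87308416-87312784. Its width was 1259, 1101 and 1027 bp in untreated cells, 2972, 3836 and 2863 bp at 30 min, 3779, 3162 and 2716 bp at 1 h, 3614, 3542 and 3605 bp at 2 h, and 4142, 4190 and 1664 bp at 4 h. All 12 LPS libraries lay above the 3 untreated ones, and 4 h replicate 3 was the lowest of them. The region's score was also lowest in that library (2127.42). The log2 changes were 1.49, 1.53, 1.60 and 1.399 (SE 0.26), 2.81-, 2.88-, 3.03- and 2.64-fold, with adjusted p of 0.0166, 0.00697, 0.00351 and 0.00952. A second peak appeared beside the first in 11 of the 12 LPS libraries, all except 4 h replicate 3, and the end with the lower coordinate moved outwards by 2145, 2451, 2652 and 1973 bp. The call at 30 min was lost without untreated replicate 2, untreated replicate 3 or 30 min replicate 2 (adjusted p 0.0542, 0.0676 and 0.0993). The call at 4 h was lost without 4 h replicate 1 or 2 (adjusted p 0.0536 and 0.0506). By the highest-scoring peak alone, no call of this region passed (adjusted p 0.752, 0.819, 0.217 and 0.277 at the 4 times).

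A stepwise widening was seen in chr10:18813146-18816211. Its width was 1145, 1276 and 1111 bp in untreated cells, 1723, 1584 and 1822 bp at 30 min, 2323, 2341 and 2413 bp at 1 h, 2443, 2620 and 2704 bp at 2 h, and 2571, 3040 and 2764 bp at 4 h. No group overlapped the untreated libraries, 30 min did not overlap the later times, and 2 h and 4 h overlapped each other. The log2 changes were 0.52, 1.03, 1.06 and 1.20 (SE 0.10), with adjusted p of 0.0299, 0.00014, 4.93e-05 and 1.89e-05. The calls at 1 h, 2 h and 4 h passed in every alternative run, while the 30 min call was lost when any 1 of the 6 libraries compared was left out (adjusted p 0.0522, 0.0634 and 0.104 without untreated replicates 1, 2 and 3, and 0.0629, 0.0784 and 0.127 without 30 min replicates 1, 2 and 3). A region gained after LPS, that is with a peak in 3 of 3 libraries of at least 1 LPS time and in 0 of 3 untreated, lay 616 bp away on the side of the lower coordinate, at chr10:18811190-18812529.

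Widening began later in chr5:4527358-4532354. Its width was 2102, 1905 and 1880 bp in untreated cells, 2261, 1998 and 2028 bp at 30 min, 3081, 3676 and 3553 bp at 1 h, 4363, 4471 and 4320 bp at 2 h, and 4137, 4546 and 4931 bp at 4 h. The 30 min libraries overlapped the untreated ones, and all 9 later libraries lay above both. Its log2 changes were 0.08, 0.83, 1.09 and 1.16 (SE 0.13), with adjusted p of 0.936, 0.00274, 0.000237 and 0.000146. No left-out library ended these calls at 1 h, 2 h or 4 h, but by the highest-scoring peak alone none of them passed (adjusted p 0.627, 0.0664 and 0.532). The nearest gained region was 512 bp beyond its end at the higher coordinate, at chr5:4532867-4534641, whereas the end with the lower coordinate moved by 1821, 2152 and 2316 bp at the 3 later times.

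A like course was found in chr16:93911686-93916678, with 1859, 3034 and 1765 bp in untreated cells, 1783, 2387 and 2666 bp at 30 min, 4235, 3898 and 3761 bp at 1 h, 4299, 4332 and 4739 bp at 2 h, and 4697, 4509 and 4367 bp at 4 h. Untreated replicate 2 stood above the other 2 untreated libraries, and all libraries from 1 h on lay above every earlier one. On the log2 scale it changed by 0.05, 0.90, 0.98 and 1.02 (SE 0.18), with adjusted p of 0.98, 0.0152, 0.00676 and 0.00552. The 1 h call was lost without untreated replicate 1, untreated replicate 3 or 1 h replicate 1 (adjusted p 0.0605, 0.0656 and 0.0593). In all 3 libraries at 1 h the region was split into 3 peaks. Measured by its highest-scoring peak alone, it changed by -0.25 at 1 h, the opposite sign.

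The change between 4 h and 30 min of LPS was tested in the same fit. It was called in 22 members (0.422%), beside 1.16% of all constant regions. The 3 regions just described were among them, with 4 h exceeding 30 min by 0.67, 1.08 and 0.98 on the log2 scale for chr10:18813146-18816211, chr5:4527358-4532354 and chr16:93911686-93916678 (adjusted p 0.00365, 0.000538 and 0.0138). For chr7:87308416-87312784 the difference was -0.09 (adjusted p 0.959).

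**Figure D4:**
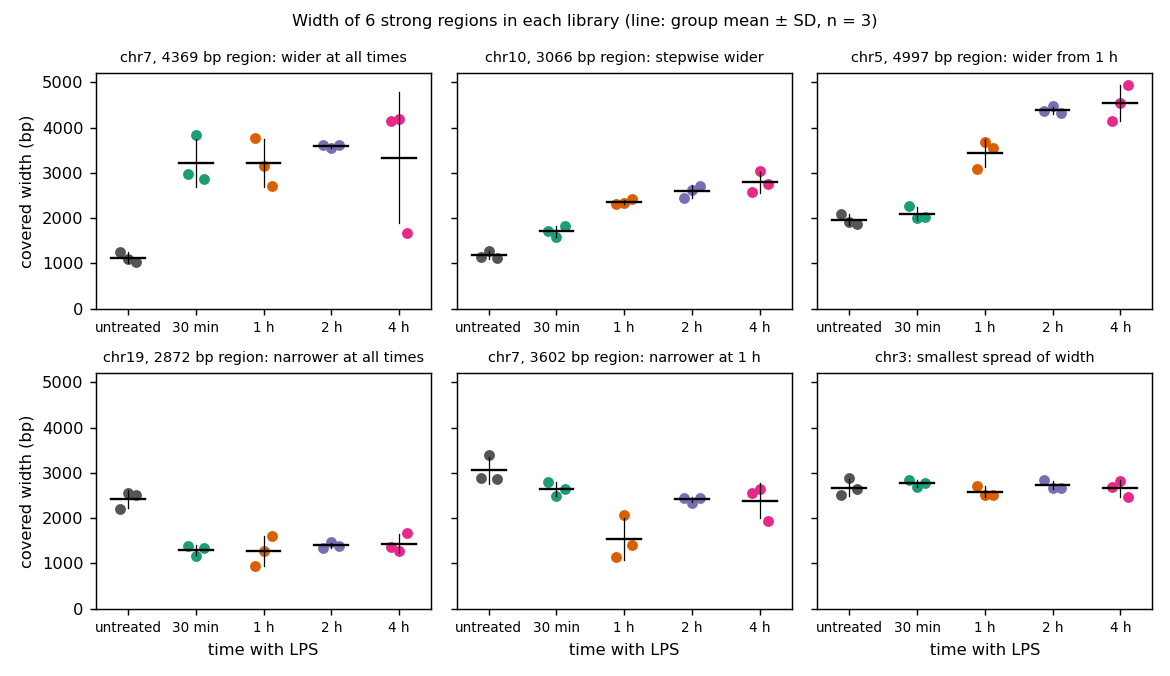
Covered width (bp) in each of the 15 libraries for 6 strong regions. Points are libraries, horizontal lines group means and vertical lines SD (n = 3). The upper row shows widening already at 30 min on chr7 (untreated mean 1129 bp, 30 min mean 3224 bp), in steps on chr10 and from 1 h on chr5. The lower row shows narrowing at all times on chr19, narrowing called at 1 h on chr7, and the member with the smallest spread, on chr3.

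On chr1:133004139-133009024 the width was 1895, 2203 and 1679 bp in untreated cells, 3342, 3187 and 2118 bp at 30 min, 3958, 4142 and 2430 bp at 1 h, 4324, 4222 and 4267 bp at 2 h, and 4203, 4713 and 3680 bp at 4 h. Replicate 3 was the lowest library of its group at 30 min, 1 h and 4 h, and at 30 min it overlapped the untreated libraries in base pairs, though not after centring. The log2 changes at 1 h, 2 h and 4 h were 0.86, 1.08 and 1.08 (SE 0.19), with adjusted p of 0.0304, 0.0056 and 0.00662, and 0.55 at 30 min (adjusted p 0.358). The 1 h call was lost without untreated replicate 1, 2 or 3 (adjusted p 0.0652, 0.0553 and 0.113) and without 1 h replicate 1 or 2 (0.115 and 0.118).

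Some members had their greatest mean width early. The region chr10:76668088-76672837 measured 1740, 1309 and 1795 bp in untreated cells, 2987, 4566 and 3597 bp at 30 min, 3951, 3150 and 3534 bp at 1 h, 2109, 3463 and 3250 bp at 2 h, and 2813, 1995 and 2081 bp at 4 h. In base pairs all LPS libraries lay above the untreated ones, with the lowest of them at 4 h and 2 h, while after centring the 4 h libraries overlapped the untreated ones. The log2 changes were 1.18 and 1.17 at 30 min and 1 h (SE 0.24, adjusted p 0.0371 and 0.0178), then 0.77 and 0.46 (adjusted p 0.0979 and 0.414). The limma test of 4 h against 30 min did not pass in this region (-0.72, adjusted p 0.237). The 30 min call was lost in 9 of the 15 fits that left out 1 library and under the replicate block (adjusted p 0.0569). The 1 h call was lost without untreated replicate 2 or 1 h replicate 1 (adjusted p 0.063 and 0.0701).

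In chr10:44409236-44412719 a single time was called. The width was 1378, 1225 and 1898 bp in untreated cells, 2998, 3140 and 1948 bp at 30 min, 3430, 3258 and 2619 bp at 1 h, 1856, 1365 and 1669 bp at 2 h, and 2871, 1892 and 1794 bp at 4 h. The 2 h and 4 h libraries overlapped the untreated ones. The log2 change was 1.09 at 1 h (SE 0.23, adjusted p 0.0238) and 0.06 at 2 h (adjusted p 0.943). The limma test of 4 h against 30 min did not pass in this region either (-0.34, adjusted p 0.7). Its call was lost without untreated replicate 1 or 2 (adjusted p 0.0692 and 0.0827) or 1 h replicate 1 or 2 (0.0866 and 0.0763).

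Another 4 named members were wider at 1 or more times. The region chr7:63037432-63040883 measured 1548, 1325 and 1743 bp in untreated cells and 2150 to 2975 bp over the 12 LPS libraries, with no overlap, 1 peak in each untreated library and 2 in each LPS library. Its log2 changes were 0.81, 0.66, 0.69 and 0.82 (SE 0.14; adjusted p 0.0112, 0.0197, 0.0111 and 0.00397). The 1 h call was lost without untreated replicate 2, 1 h replicate 1 or 1 h replicate 2 (adjusted p 0.0565, 0.0763 and 0.0595), and the 2 h call without 2 h replicate 1 (0.0604). Measured by the highest-scoring peak alone, all 4 changes turned negative, at -0.06, -0.22, -0.25 and -0.07.

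The region chr2:129410615-129414711 measured 1794, 1938 and 1707 bp in untreated cells and 3225 to 3688 bp at 30 min, 1 h and 2 h. At 4 h replicate 3 measured 1807 bp beside 3199 and 3613 bp in the other libraries. The region scored lowest in that library (1234.76), whose list held only 9632 peaks of score 1000 or more. Its log2 changes at 30 min, 1 h and 2 h were 0.90, 0.99 and 0.88 (SE 0.17; adjusted p 0.0276, 0.00747 and 0.0108), and 0.56 at 4 h (adjusted p 0.124). The 30 min call was lost without untreated replicate 1, 2 or 3 (adjusted p 0.0649, 0.0665 and 0.0939) or 30 min replicate 2 or 3 (0.129 and 0.0995).

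In chr10:8494674-8498879 the width was 1786, 2359 and 2122 bp in untreated cells and 3227 to 4127 bp at 30 min, 1 h and 2 h, and again 4 h replicate 3 alone, at 2160 bp, lay within the untreated range in base pairs. The region scored lowest in that library too (1068.05), and after centring all 3 libraries at 4 h lay above the untreated ones. The log2 changes were 0.84, 0.82 and 0.81 at 30 min, 1 h and 2 h (SE 0.17; adjusted p 0.0389, 0.0211 and 0.0159), and a gained region began 569 bp away. Leaving out single libraries ended the 30 min call in 11 of 15 fits, the 1 h call in 4 (untreated replicates 1 and 3 and 1 h replicates 1 and 2, adjusted p 0.0783, 0.0591, 0.0745 and 0.0696) and the 2 h call in 3 (untreated replicate 1 and 2 h replicates 1 and 2, adjusted p 0.0671, 0.0518 and 0.068).

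The region chr1:64339344-64344100 was called at 2 h alone, with 1235, 1729 and 2674 bp in untreated cells and 4397, 4583 and 3301 bp at 2 h (log2 change 1.11, SE 0.24, adjusted p 0.0205). The groups did not overlap, though untreated replicate 3 was close to the lowest 2 h library. The call was lost without untreated replicate 1 or 2 (adjusted p 0.0981 and 0.0693) or 2 h replicate 1 or 2 (0.0825 and 0.093).

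Narrowing at all 4 times was found in 2 members (0.0384%) and widening at all 4 times in 12 (0.23%), beside 0.0288% and 0.405% of all constant regions. The first was chr19:60892864-60895735, with 2199, 2544 and 2517 bp in untreated cells, 1378, 1166 and 1333 bp at 30 min, 952, 1265 and 1597 bp at 1 h, 1350, 1466 and 1377 bp at 2 h, and 1361, 1277 and 1671 bp at 4 h. All LPS libraries lay below all untreated ones, with a single peak in every library. The width fell by 0.92, 0.93, 0.86 and 0.81 on the log2 scale (SE 0.18; adjusted p 0.0267, 0.0119, 0.013 and 0.0232). The end with the lower coordinate shifted by -1104, -1044, -1096 and -976 bp on average, where negative values are inward. On the opposite side, 40 bp away, lay a lost region, with a peak in 3 of 3 untreated libraries and in 0 of 3 of at least 1 LPS time, at chr19:60895776-60897389.

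The 30 min call of chr19:60892864-60895735 was lost without any 1 of the 6 libraries compared (adjusted p 0.0848, 0.0579 and 0.0841 without untreated replicates 1, 2 and 3, and 0.0667, 0.128 and 0.07 without 30 min replicates 1, 2 and 3). Its 2 h call was lost without 2 h replicate 1 (adjusted p 0.0553). Its 4 h call was lost without untreated replicate 1, 2 or 3 (0.0686, 0.0554 and 0.0727) and without 4 h replicate 1 or 2 (0.0933 and 0.103).

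The second was chr7:128124814-128128445, with 2189, 3541 and 3545 bp in untreated cells, 1949, 1780 and 1856 bp at 30 min, 1865, 1819 and 1536 bp at 1 h, 1678, 1956 and 1790 bp at 2 h, and 1816, 1978 and 1577 bp at 4 h. The LPS libraries lay below the untreated ones, of which replicate 1 was the closest to them. The width fell by 0.71, 0.78, 0.82 and 0.81 on the log2 scale (SE 0.14; adjusted p 0.0284, 0.00827, 0.00389 and 0.00483), and the end with the higher coordinate shifted by -1534 to -1595 bp, that is inward. The 30 min call was lost without untreated replicate 2 or 3 (adjusted p 0.0884 and 0.106) and without 30 min replicates 1, 2 or 3 (0.0766, 0.116 and 0.0848).

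In chr4:149460427-149463949 the width was 3147, 2959 and 3265 bp in untreated cells and 1481 to 2130 bp over the 12 LPS libraries, without overlap. It fell by 0.84, 0.67 and 0.82 on the log2 scale at 1 h, 2 h and 4 h (SE 0.14; adjusted p 0.00465, 0.0134 and 0.0042), and the change of -0.65 at 30 min did not pass (adjusted p 0.0502). The 2 h call was lost without untreated replicate 1 or 2 h replicate 2 (adjusted p 0.0617 and 0.0546). A second peak was called in 2 of the 3 untreated libraries and in 0 of the 12 LPS libraries.

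In chr1:13637187-13640629 all 3 untreated libraries had 2 peaks, with 2377, 2990 and 2917 bp. All libraries at 1 h and 4 h had 1 peak, with 1295, 1719 and 1422 bp and with 1716, 1705 and 1256 bp. The width fell by 0.88 at both times on the log2 scale (SE 0.15; adjusted p 0.00684 and 0.00522) and by 0.69 at 2 h (adjusted p 0.0205). The 2 h call was lost without untreated replicate 2 or 3 (adjusted p 0.0559 and 0.0686) or 2 h replicate 2 or 3 (0.0922 and 0.0857).

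A passing narrowing was seen in chr19:55939624-55943538. Its width was 3471, 3825 and 3273 bp in untreated cells, 3316, 3406 and 3279 bp at 30 min, 1996, 1667 and 1867 bp at 1 h, 2123, 3163 and 2045 bp at 2 h, and 3089, 3730 and 2678 bp at 4 h. The 1 h libraries, with 1 peak each in place of 2, lay below all others, and 30 min and 4 h overlapped the untreated libraries. The log2 changes were -0.91 at 1 h (SE 0.16, adjusted p 0.00629), -0.63 at 2 h (adjusted p 0.0383) and -0.21 at 4 h (adjusted p 0.607). The 2 h call was lost in 7 of the 15 fits that left out 1 library.

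The region chr7:87221328-87224929 was called narrower at 1 h, and it lies 83486 bp from chr7:87308416-87312784, the member with the largest widening. Its width was 2894, 3397 and 2873 bp in untreated cells, 2799, 2489 and 2637 bp at 30 min, 1152, 2058 and 1414 bp at 1 h, 2448, 2344 and 2443 bp at 2 h, and 2555, 2647 and 1935 bp at 4 h. The 1 h libraries were the lowest apart from 4 h replicate 3, which lay below 1 h replicate 2. Its log2 change was -1.002 at 1 h (SE 0.17, adjusted p 0.0054) and passed in every alternative run, and at the other times it was -0.22, -0.41 and -0.42 (adjusted p 0.789, 0.235 and 0.252). A further member called narrower lay 118 bp away at chr7:87218542-87221209, a neighbour picked out after its values were seen.

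Of the other named members that narrowed, chr1:146046542-146048705 fell by 1.04 on the log2 scale at 2 h (SE 0.19, adjusted p 0.00739), from 1922, 2155 and 1718 bp to 1319, 808 and 900 bp, and passed with each single library left out. The region chr7:148348564-148351928 fell by 0.92 at 2 h (SE 0.17, adjusted p 0.00709), from 1875, 3104 and 3020 bp to 1358, 1253 and 1782 bp. That call also passed with each single library left out, whereas its calls at 30 min and 4 h (adjusted p 0.0467 and 0.0387) were lost in 12 and 8 of the 15 such fits. Its neighbour 249 bp away, chr7:148352178-148356897, was a narrower member too, again picked out afterwards.

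The remaining calls of named members lay near the threshold. At 30 min chr15:27635290-27640082 had an adjusted p of 0.0393, lost in 9 of the 15 fits that left out 1 library and under the replicate block (adjusted p 0.059). At 1 h chr16:90219887-90223437 had 0.0338, lost in 7 of 15. At 1 h and 2 h chr13:97310590-97315096 had 0.0494 and 0.0459, lost in 13 and 12. At 2 h chr18:36951563-36954417 had 0.0224, lost in 4. At 4 h chr8:73072040-73076694 had 0.0454, lost in 11, and chr15:9060226-9063089 had 0.0372, lost in 8. Their log2 changes were -0.87, -0.95, -0.87, -0.83, -0.89, -1.19 and -0.83 in this order.

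Together the rule for naming gave 11 wider and 14 narrower members with 59 calls. Of these calls, 28 passed in all 15 fits that left out 1 library and 31 were lost in at least 1. Measured by the width of the highest-scoring peak instead of all peaks in the region, 51 of the 59 did not pass in the same direction. Those that passed were the calls of chr10:18813146-18816211 and chr19:60892864-60895735 at 1 h, 2 h and 4 h. The 1 h calls of chr7:87221328-87224929 and chr16:90219887-90223437 passed as well. With no centring 15 of the 59 were lost.

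Some members with a large spread were not called. The member with the second largest SD of centred log2 width, chr14:64984198-64988673 (SD 0.64), measured 2272, 4344 and 1838 bp in untreated cells and 1081, 1552 and 1167 bp at 4 h. The groups did not overlap, but the adjusted p was 0.0905. The next, chr1:135665791-135670395 (SD 0.58), measured 3681, 4492 and 3195 bp at 1 h and 1597, 2734 and 1587 bp in untreated cells, with an adjusted p of 0.139.

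A change in the number of peaks was a second readout of shape that the rule did not use. All 3 LPS libraries were split into 2 or more peaks and all 3 untreated libraries had 1 in 12, 20, 22 and 11 members at 30 min, 1 h, 2 h and 4 h (0.23%, 0.384%, 0.422% and 0.211%), beside 0.256%, 0.497%, 0.722% and 0.388% of all constant regions. The reverse held for 11, 13, 15 and 15 members (0.211%, 0.249%, 0.288% and 0.288%), beside 0.175%, 0.293%, 0.443% and 0.359%. No test was made of these counts.

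The time of the greatest or smallest mean width varied among the changed members. It was read from means of 3 libraries without a test, and these counts were not made over all constant regions. The test of 4 h against 30 min called 14 of the 130 changed members. Of the 79 that were wider at 1 or more times, the mean width was greatest at 30 min in 5 of them, at 1 h in 23, at 2 h in 26, and in the other 25 at 4 h, and 38 were called at exactly 1 time. Of the 51 narrower members, the mean width was smallest at 30 min in 2 of them, at 1 h in 21, at 2 h in 19, and in the other 9 at 4 h, and 35 were called at exactly 1 time. The changed members lay on 19 chromosomes.

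Regions gained and lost after LPS lay near members about as often as near the other constant regions under 5 kb. A gained region lay within 10 kb of 11.7% of members and 13% of the others, and a lost region within 10 kb of 4.79% and 5.17%. Around the changed members the values differed. Of the 79 wider members 23 (29.1%) had a gained region within 10 kb and 0 a lost one, and of the 51 narrower members 1 (1.96%) had a gained and 6 (11.8%) a lost one, beside 11.6% and 4.8% of the members without a call. Both measures come from the same libraries, so these shares are a description and carry no test.

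Members were spread over all autosomes and the X chromosome. Their share of the constant regions under 5 kb was 16.1% in the whole genome, highest on chromosome 7 (19.6%, 404 members), chromosome 11 (18.5%) and chromosome 8 (17.8%), and lowest on the X chromosome (10.7%, 68 members), chromosome 13 (12.6%) and chromosome 6 (13.2%). The Y chromosome had 0 members among 5 constant regions under 5 kb. How many X chromosomes the cells carried is not given in the labels.

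**Figure D5:**
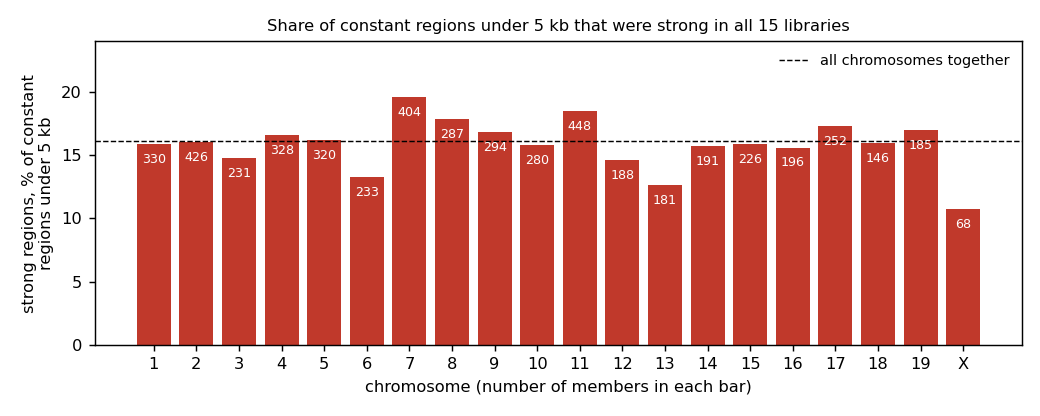
Strong regions as % of the constant regions under 5 kb on each chromosome, with the number of strong regions written in each bar and the share over all chromosomes (16.1%) as a dashed line. Chromosome 7 is highest at 19.6% and the X chromosome lowest at 10.7%.

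Most members stood apart from each other. The nearest other member was a median of 58468 bp away, and 11.9% of members had another within 10 kb. With members joined where gaps were under 10 kb, 4596 stood alone, 268 runs had 2, 22 had 3 and 4 had 4. The runs of 4 were chr8:124093387-124110434, chr17:34767889-34785431, chr2:167576485-167604614 and chr17:56394562-56431707. The windows of 1 Mb with most members were chr10:80000001-81000000 with 22 of 78 constant regions under 5 kb, chr8:73000001-74000000 with 21 of 50, and chr17:56000001-57000000 and chr9:21000001-22000000 with 20 each of 44 and 58. Members occupied 1502 of the 2007 windows that held a constant region under 5 kb, with a median of 3.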

How the data were processed

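ATAC-seq peak lists of 15 mouse macrophage libraries were analysed. Bowtie 1.1.2, MACS 1.4 and the build mm9 are listed in the submitters' processing notes. Of their settings, the transposase shift, duplicates, a control and a blacklist nothing is given in the sources used here. Each deposited peak carries a score from the caller, in all likelihood a transformed p-value, which no header states. It was used to filter and rank within a list, and the lowest score over the 15 lists chose members, as the rule sets. Positions are printed with the first base as 1, and mitochondrial peaks (2 per list) were dropped. No 2 lists shared more than 13 identical intervals.

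Overlapping peaks were merged and base pairs covered were summed per region and library (Python 3.11.15, pandas 2.3.3, numpy 2.4.6). Log2 widths, centred per library on the median of 34777 constant regions, were tested with limma 3.58.1 in R 4.3.3 (5 groups, 10 residual degrees of freedom, Benjamini-Hochberg at 0.05), after the script was tested on simulated data. Groups came from the sample titles. Named were, per time and direction, the 5 members with the largest called change and no overlap of the 3 LPS with the 3 untreated widths, the 5 highest scores, the 3 on each side of the threshold, and the 5 smallest and largest SDs, with the 3 fullest windows and longest runs (4 where tied). Alternatives were other score, width and merging limits, no centring, centring on the members, quantile normalization, a limma trend, a replicate block, the width of the highest-scoring peak, peaks of score 100 or more, a fit to regions under 5 kb, and each library left out. Members and lists were chosen with earlier results of these data known. Sequences and gene positions were not analysed here, since the reference tables at hand are of another build and coordinates were not converted.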

Additional observations from a re-analysis of the deposited data

Results flagged for a closer look

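In 3 of the named members the response at 4 h differed from that at 30 min, by a test of the difference itself in the limma fit of all constant regions. In chr10:18813146-18816211 the log2 width at 4 h exceeded that at 30 min by 0.67 (adjusted p 0.00365), in chr5:4527358-4532354 by 1.08 (adjusted p 0.000538), and in chr16:93911686-93916678 by 0.98 (adjusted p 0.0138). In each of them all 3 libraries at 4 h were wider in base pairs than all 3 at 30 min. All 3 had been named for large changes, and this difference was not repeated under the alternatives. It was called in 0.422% of members, beside 1.16% of all constant regions. By the highest-scoring peak alone, the 4 h change against untreated passed in chr10:18813146-18816211. It did not pass in chr5:4527358-4532354 (0.35, adjusted p 0.532) or chr16:93911686-93916678 (0.04, adjusted p 0.975). No cause was tested.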

How the results depend on the processing

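The number of members was 10132 at a score of 500, 1767 at 2000, 620 at 3100 and 2896 under 3 kb, and 5228 to 5664 with members chosen anew without 1 library. Leaving out single libraries gave 4 to 16 wider and 0 to 4 narrower members at 30 min, 21 to 45 and 11 to 27 at 1 h, 31 to 62 and 8 to 29 at 2 h, 25 to 46 and 7 to 19 at 4 h, and 45 to 71 in the F test. Calls over all constant regions moved as well in these fits. The share wider at 2 h ran from 1.58% to 2.97% of all and from 0.595% to 1.19% of members. With no centring, narrower members were 1, 15, 8 and 7 at the 4 times and wider ones 26 at 1 h. With the highest-scoring peak alone, wider and narrower members were 3 and 1, 13 and 11, and 20 and 11 at 30 min, 1 h and 4 h, with 14 narrower at 2 h and 33 in the F test. In the fit to regions under 5 kb, 9 and 2 were called at 30 min, 14 were narrower at 1 h, 17 at 2 h and 11 at 4 h. Members of score 2000 gave 3 and 0, 9 and 5, 11 and 9, and 9 and 4, with 19 in the F test, and peaks of score 100 or more gave 11 and 1 at 30 min. With no 5 kb bound, an alternative added after the data were seen, the counts were out of 6403 regions. They were 74 wider at 30 min, 144 and 47 at 1 h, 191 and 60 at 2 h, 141 and 31 at 4 h, and 248 in the F test. Other counts stayed within 1.5 times. Of 1180 repeats of the 59 named calls, 932 passed in the same direction, 243 did not pass and 5 turned, all by the highest-scoring peak: chr7:63037432-63040883 at the 4 times (-0.059, -0.22, -0.25 and -0.068) and chr16:93911686-93916678 at 1 h (-0.25). The number of libraries or regions entering a fit differs among these alternatives, and the cause of the changed counts and calls was not tested. Deviations of same-numbered libraries correlated at 0.03 to 0.34 over 30 pairs, and at 0.10 to 0.34 among the third replicates. Libraries of different numbers were not correlated for comparison, so whether equal numbers mark pairs was not settled, and the main fit leaves the number out. The replicate block gave 17 and 3, 51 and 29, 71 and 31, and 48 and 20 wider and narrower members at the 4 times and 76 in the F test, and 2 of the 59 named calls were lost under it. Depth is unknown, so no limit from it can be given.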
